A study of Caenorhabditis elegans with 36 samples.

Results

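The 0CUG strains are Caenorhabditis elegans that carry a control transgene, and their libraries from 2-day adults were compared with those from L4 larvae, the last larval stage. Members were chosen by label alone: 12 of the 36 libraries of the series, 6 of 2-day adults and 6 of L4, 3 from each of 2 strains at each stage. Strain 1 has the genotype mgIs65 and strain 2 the genotype mgIs85, both with the myo-3 promoter, active in body wall muscle, driving gfp with a 3' UTR that holds 0 CUG repeats. They are the controls for 2 strains with 123 CUG repeats (123CUG), in a study of the splicing factor MBL-1 and carnitine palmitoyltransferase. All animals carry the Bristol label. Hypochlorite treatment synchronised them, the food was the bacterial strain HT115 holding the RNAi vector without insert, and RNA came from whole worms. Whether the 3 libraries of a group came from separate cultures is not in the labels, so every p-value here speaks of the spread among libraries alone, and that spread may be technical.

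During L4 the hermaphrodite gonad makes sperm, the epidermis secretes the adult cuticle under the larval one, and the vulva is formed. A final moult follows, the germ line switches to oocytes, and the intestine produces yolk proteins that oocytes take up. Adults of this age hold oocytes, fertilised eggs with their shells, and a cuticle that is no longer shed. In C. elegans most germline genes lie on autosomes and few on the X chromosome.

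Libraries held 27726626 to 47021724 reads. Ribosomal RNA took 0.219% to 1.88% of the reads of adults and 1.73% to 3.15% of those of L4, and 15051 to 18175 genes had reads in adults, against 17395 to 18346 in L4. The first principal component, with 83.9% of the variance of log2 CPM (counts scaled to library size, on the scale of edgeR's TMM factors), separated the stages, and the second, with 5.67%, separated the strains, further apart in adults than in L4. Values below are the lowest, the median and the highest CPM of the 6 libraries of a stage. A gene is called, and is said to have risen or fallen, at an edgeR adjusted p under 0.05 with strain as a covariate. Positive log2 values are higher in adults, and the 6 adult and 6 L4 libraries of a named gene do not overlap unless their overlap is stated or the gene is named for a difference between strains or constructs. Strandedness of the libraries is not given in the sources used here, so genes whose exons overlap those of another annotated gene are uncertain: vit-2, mlt-10, nlp-56, wrt-2, par-1, egg-1, spe-9, xnd-1, zim-1, sdz-24, col-143, col-116, dpy-8, bli-1, nas-37, nekl-2, ptr-10, lin-29, lin-28, lin-3, inx-14, unc-52, him-4, cle-1, unc-94, abu-13, tni-4, mec-12, tbh-1, tdc-1, ucr-2.3, gas-1, MTCE.34, elo-4, fat-5, acdh-2, dgat-2, asp-4, clec-87, sip-1, asd-1, mec-8, lad-2 and dhs-26. Coordinates are those of Ensembl for genome build WBcel235. Reads of major sperm protein, histone, yolk protein and collagen genes can be split between near-identical copies.

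The libraries labelled 0CUG strain 1 L4 held transcripts that set the strains apart in adults in a way the labels do not explain. Genes were listed that had at least 1 CPM in each adult library of 1 of the 4 transgenic strains and at most 3 reads in all in the adults of each other strain. Of 21 such genes of strain 1 adults, 17 averaged at least 0.5 CPM in L4 of strain 1, against 3 in L4 of strain 2. Of 16 such genes of strain 2 adults, 15 reached that level in L4 of strain 1 and also 15 in L4 of strain 2, with medians over the 16 genes of 5.21 CPM in L4 of strain 1 and 5.78 CPM in L4 of strain 2. K09C6.6 averaged 0 CPM in strain 1 adults and 6.51 CPM in strain 2 adults, yet 12.8 CPM in L4 of strain 1 and 11.98 CPM in L4 of strain 2. The acyltransferase family gene oac-39 averaged 20.6 CPM in strain 1 adults and 7.32 CPM in L4 of strain 1, against 0.0123 and 0 CPM in strain 2. Strain 1 L4 libraries thus had transcripts of most genes of both sets, the 21 of strain 1 adults and the 16 of strain 2 adults. The sets were defined in adults alone, so they do not say which strain a transcript in L4 came from. No such sharing was seen for the 12 and 6 such genes of the 123CUG strains. Of these, 12 and 6 reached 0.5 CPM in L4 of their own strain and at most 2 in L4 of any other. The reason was not tested. Counts of the lists are therefore also given for strain 2 alone. That fit tested 15044 genes, against 16384 in the joint fit, and so fewer members of some lists.

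**Figure D1:**
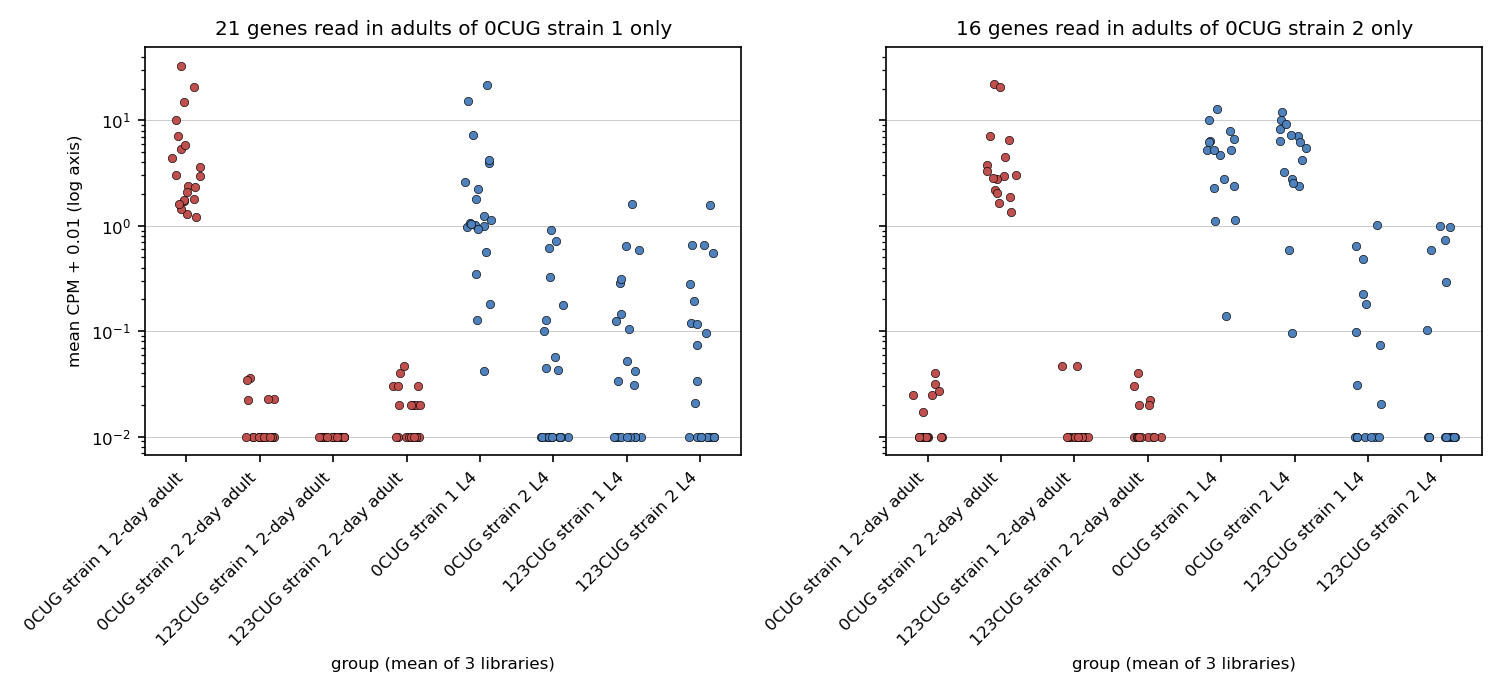
Mean CPM + 0.01 (log axis, 3 libraries per group) of the 21 genes read only in strain 1 among adults (left) and of the 16 read only in strain 2 among adults (right). In the right panel the L4 libraries of both 0CUG strains hold the transcripts, with 15 of 16 genes at 0.5 CPM or more in each. Their near absence from the adults of the other strains is set by the rule that chose the genes.

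Stage markers went with the labels. vit-2 (C42D8.2, chromosome X, 5101042 to 5106169), which encodes a yolk protein, was at 20239.7, 36123 and 57364 CPM in adults, against 1401, 1989 and 2547 CPM in L4. The moulting gene mlt-10 (C09E8.3, chromosome II, 546705 to 552032) had 0.813, 1.71 and 2.11 CPM in adults, against 46.4, 68.5 and 76.8 CPM in L4. mex-5 (W02A2.7, chromosome IV, 13353723 to 13356104), a zinc-finger polarity factor that oocytes supply to the embryo, measured 401, 453 and 485 CPM in adults, against 3.51, 5.72 and 8.64 CPM in L4. No adult library of either strain overlapped the L4 libraries in these genes, and the fits gave log2 4.19 ± 0.31 SE, edgeR adjusted p = 1.51e-08 for vit-2, log2 -5.41 ± 0.22 SE, edgeR adjusted p = 2.24e-11 for mlt-10 and log2 6.33 ± 0.16 SE, edgeR adjusted p = 7.64e-13 for mex-5. col-19 (ZK1193.1, chromosome X, 421707 to 422691), a collagen of the adult cuticle, stood at 409.6, 547 and 824 CPM in adults, against 319, 523 and 767 CPM in L4, so that it was abundant at both stages and the ranges overlapped (log2 0.11 ± 0.10 SE, edgeR adjusted p = 0.329, with a negative sign under upper-quartile scaling). nhr-23 (C01H6.5, chromosome I, 7214745 to 7221299), a nuclear receptor that drives moulting, overlapped too, at 22.2, 32.6 and 38.9 CPM in adults, against 33.5, 38.3 and 47.9 CPM in L4. Its log2 change was -0.31 in the joint fit (edgeR adjusted p = 0.0320) and 0.043 in strain 1 alone, and the call held in 13 of 26 alternatives (adjusted p up to 0.7995).

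**Figure D2:**
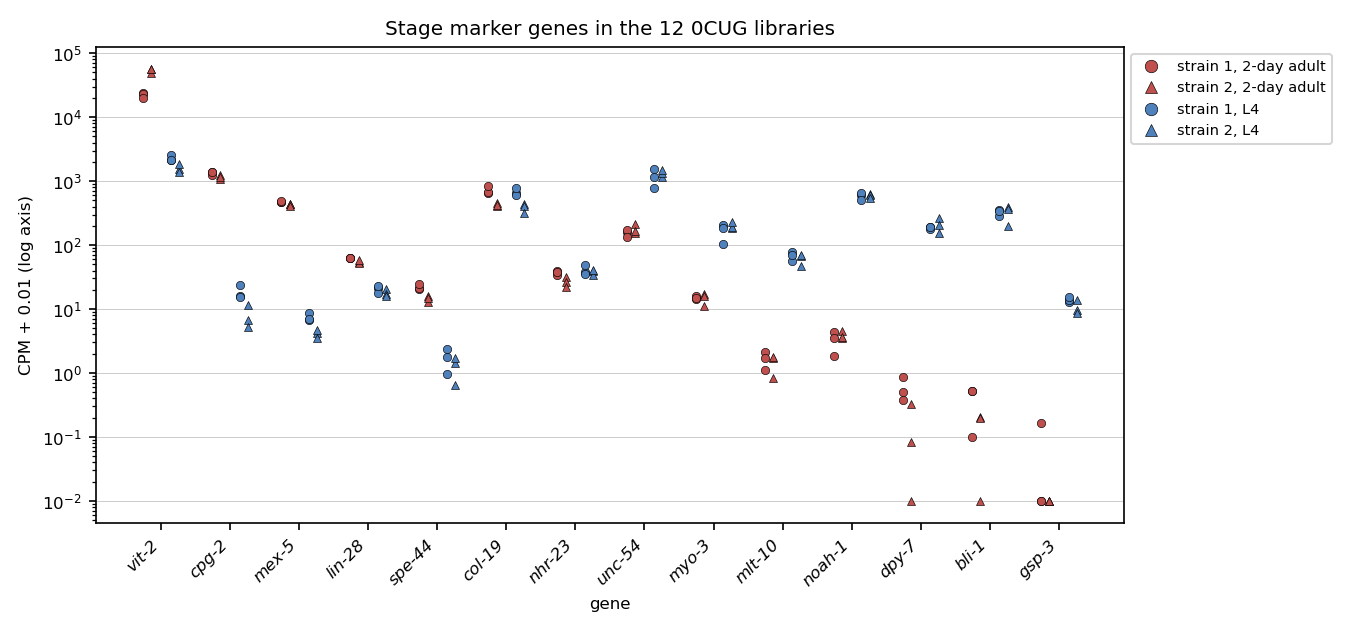
CPM + 0.01 (log axis) of 14 stage marker genes in each 0CUG library, 2-day adults in red left of L4 in blue, strain 1 as circles and strain 2 as triangles. vit-2, cpg-2, mex-5, lin-28 and spe-44 were higher in every adult library, col-19 and nhr-23 overlapped, and the genes from unc-54 to gsp-3 were lower in every adult library.

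The stages differed in most of the transcriptome. Of 16384 genes tested, 5562 (33.9%) rose and 7920 (48.3%) fell in adults, and the 6 adult and 6 L4 libraries did not overlap in 66.1% of genes. Against a 2-fold change (edgeR glmTreat), 3451 (21.1%) rose and 5646 (34.5%) fell. In strain 1 alone 5529 rose and 7338 fell, and in strain 2 alone 5233 rose and 6349 fell. Called the same way in both strains alone were 4576 rises (27.9%) and 5691 falls (34.7%), and 190 genes were called in opposite directions. The median of all genes was -0.49 on the log2 scale and moved to -0.89 with upper-quartile factors, under which 4473 rose and 9066 fell, so smaller shifts of a list are read against that median. Counts of rises and falls in every list below are likewise read against the 33.9% and 48.3% of all genes. 431 genes tested had 0 reads in adults and 74 had 0 reads in L4.

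The largest rise among genes with a gene name was that of ins-19 (T10D4.13, chromosome II, 3126037 to 3126441), an insulin-like peptide gene, with 1.22, 20.1 and 78.7 CPM in adults and 0 reads in L4. It was at least 1718-fold higher in adults, against a floor of 3 reads over the 6 L4 libraries, with 2.14, 1.22 and 3.42 CPM in strain 1 adults and 36.8, 62.1 and 78.7 CPM in strain 2 adults. sea-1 (F19B10.9, chromosome II, 3671908 to 3673593), a T-box gene that counts autosomes in sex determination, had 5.37, 6.75 and 13.6 CPM in adults and was at least 506-fold higher. nlp-39 (C54C8.9, chromosome I, 12461656 to 12461895), of the neuropeptide-like group, was at least 299-fold higher, also with 0 reads in L4. skr-14 (Y47D7A.8, chromosome V, 4421069 to 4421575), a Skp1-related gene, was 1143-fold (95% counting interval 205 to 45179.6) higher, and its relative skr-7 (Y47D7A.1, chromosome V, 4422427 to 4423011) was at 9.69, 12.1 and 16.3 CPM in adults, against 0, 0 and 0.195 CPM in L4. All libraries of one stage lay apart from those of the other in each of these genes.

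Other leading rises were those of clec-190 (M199.4, chromosome IV, 15124931 to 15126121), a C-type lectin, at 56.5, 75.02 and 85.8 CPM in adults, against 0, 0.228 and 0.930 CPM in L4. cav-1 (T13F2.8, chromosome IV, 9772510 to 9773559), a caveolin, had 12.1, 18.3 and 24.9 CPM in adults, against 0, 0.0584 and 0.195 CPM in L4. nlp-56 (Y57G11C.45, chromosome IV, 14783324 to 14784737), another gene of that neuropeptide-like group, measured 29.7, 44.9 and 63.3 CPM in adults, against 0, 0.224 and 0.381 CPM in L4. ztf-25 (Y6G8.3, chromosome V, 17601820 to 17602970), a zinc-finger gene, stood at 2.86, 6.78 and 7.68 CPM in adults, against 0, 0 and 0.180 CPM in L4. cyp-29A4 (B0331.1, chromosome V, 9654755 to 9658120), a cytochrome P450, was at 5.86, 10.6 and 12.7 CPM in adults, against 0, 0 and 0.0732 CPM in L4. Their log2 changes lay between 7.10 (ztf-25) and 8.66 (cyp-29A4), each with an edgeR adjusted p of at most 2.44e-07. In L4 each of these genes was under 1 CPM in every library.

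The 12 largest falls among genes with a gene name, and not only a sequence name, follow, 8 of them in collagen genes. col-49 (K09H9.3, chromosome I, 3137185 to 3138447), a cuticle collagen, had 0 reads in adults and 129.5, 231 and 289.9 CPM in L4, and was at least 14335-fold lower. The ground-like gene grl-7 (T02E9.2, chromosome V, 11344828 to 11347012) was at least 6742-fold lower, the collagen col-131 (C39E9.3, chromosome IV, 13065729 to 13067300) at least 5094-fold, the warthog gene wrt-2 (F52E4.6, chromosome X, 3092395 to 3094349) at least 3354-fold and the groundhog gene grd-6 (T18H9.1, chromosome V, 9221866 to 9224354) at least 2047-fold, all with 0 reads in adults. The collagens rol-6 (T01B7.7, chromosome II, 8733050 to 8734239) and rol-1 (Y57A10A.11, chromosome II, 12172573 to 12176069) had at most 3 reads over the adult libraries and were 48807-fold (95% counting interval 8759 to 1927810.0) and 29345-fold (95% counting interval 8123 to 242320.0) lower in adults. In all 7 genes the 6 adult libraries lay at or next to 0.

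sqt-1 (B0491.2, chromosome II, 11336693 to 11337837) stood at 0, 0.0302 and 0.186 CPM in adults, against 335, 500.5 and 555 CPM in L4, sqt-2 (C01B12.1, chromosome II, 23325 to 24458) at 0, 0.0326 and 0.234 CPM in adults, against 331, 476 and 533 CPM in L4, and rol-8 (ZK1290.3, chromosome II, 7544108 to 7545335) at 0, 0 and 0.247 CPM in adults, against 318, 449 and 535 CPM in L4. These 3 collagens are known for squat or roller body shapes when mutated. col-145 (B0222.7, chromosome V, 9161992 to 9163005) measured 0, 0 and 0.234 CPM in adults, against 164, 252 and 381 CPM in L4. glf-1 (H04M03.4, chromosome IV, 5885835 to 5889821), a UDP-galactopyranose mutase that makes a sugar of surface glycans, stood at 0, 0 and 0.0665 CPM in adults, against 94.2, 159.7 and 177 CPM in L4. In log2 terms they lay between -13.03 and -12.52, with edgeR adjusted p of at most 5.11e-11.

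**Figure D3:**
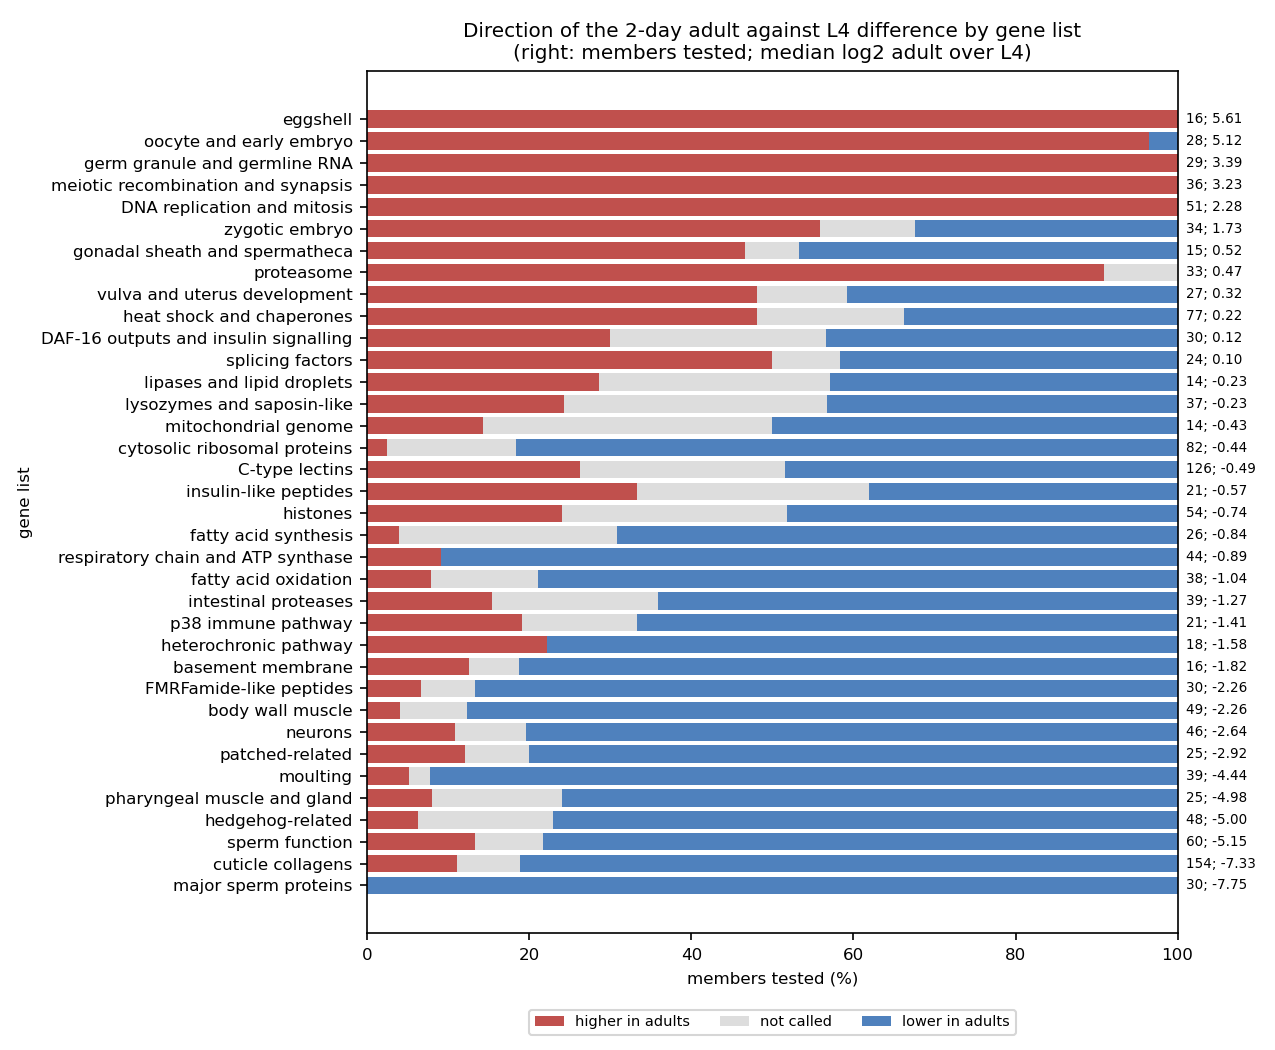
Share of the members tested that rose (red), were not called (grey) or fell (blue) in 2-day adults against L4, for gene lists with at least 14 members tested, sorted by median log2. The list of glutathione transferases, cytochromes P450 and glucuronosyltransferases is not drawn. Eggshell, germ granule, meiosis and replication genes all rose, and all 30 major sperm protein genes fell.

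Yolk protein genes took far more of the reads of adults. All 6 vit genes rose (33.9% of all genes did), with a median log2 of 4.26 (5.21 in strain 2 alone). Together they took 11.5 ± 4.70% of the reads in adults and 0.634 ± 0.152% in L4 (SD, n = 6 and 6, two-sided exact permutation p = 0.00216, the smallest 6 against 6 can give, 0.00289 adjusted over 8 shares). The share was 8.17%, 7.34% and 6.47% in strain 1 adults and 13.9%, 16.3% and 16.8% in strain 2 adults, so the strains did not overlap. The permutation takes no account of strain, here and in the other shares, and the SD pools both strains. In whole-animal RNA, less RNA from a tissue and more RNA from other tissues cannot be told apart, here and in all tissue lists below. The number of cells of a type and the RNA per cell were not measured either.

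vit-5 (C04F6.1, chromosome X, 3403471 to 3408603) was at 14326, 26277 and 41670.1 CPM in adults, against 773, 1041 and 1392 CPM in L4. vit-4 (F59D8.2, chromosome X, 3558769 to 3563965) had 4332, 8034 and 12939 CPM in adults, against 258, 356 and 502 CPM in L4. Both encode yolk lipoproteins of the intestine, as does vit-6 (K07H8.6, chromosome IV, 8261157 to 8266459), at 15485, 29314 and 50148 CPM in adults, against 1548, 2132 and 2740.4 CPM in L4. Per length, in the FPKM (reads scaled to gene length and library size) that the authors deposited, vit-2 averaged 7066 in adults, where only the ribosomal protein genes rpl-39 (8010.2) and rpl-29 (7692) were higher, against 380.2 in L4. ule-4, next in rank at 4, averaged 6612 FPKM in adults, against 363 in L4.

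The receptor that takes yolk into oocytes, rme-2 (T11F8.3, chromosome IV, 5470026 to 5473174), rose 122.3-fold, at 343, 426 and 533 CPM in adults, against 1.90, 3.48 and 6.60 CPM in L4 (log2 6.93 ± 0.18 SE, edgeR adjusted p = 1.01e-12). Of the other 7 genes of yolk uptake and regulation, 6 fell (over all 8, 1 rose and 6 fell, and 2 and 5 in strain 2 alone). They include the intestinal GATA factor elt-2 (C33D3.1, chromosome X, 10481240 to 10483441), at 6.22, 17.04 and 26.6 CPM in adults, against 49.6, 55.8 and 59.7 CPM in L4. lrp-2 (T21E3.3, chromosome I, 3935272 to 3953991), an LDL receptor-related gene, measured 15.1, 21.7 and 26.5 CPM in adults, against 47.8, 54.8 and 87.6 CPM in L4. elt-2 was lower in strain 1 adults (9.24, 10.2 and 6.22 CPM) than in strain 2 adults (23.9, 26.6 and 24.7 CPM).

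**Figure D4:**
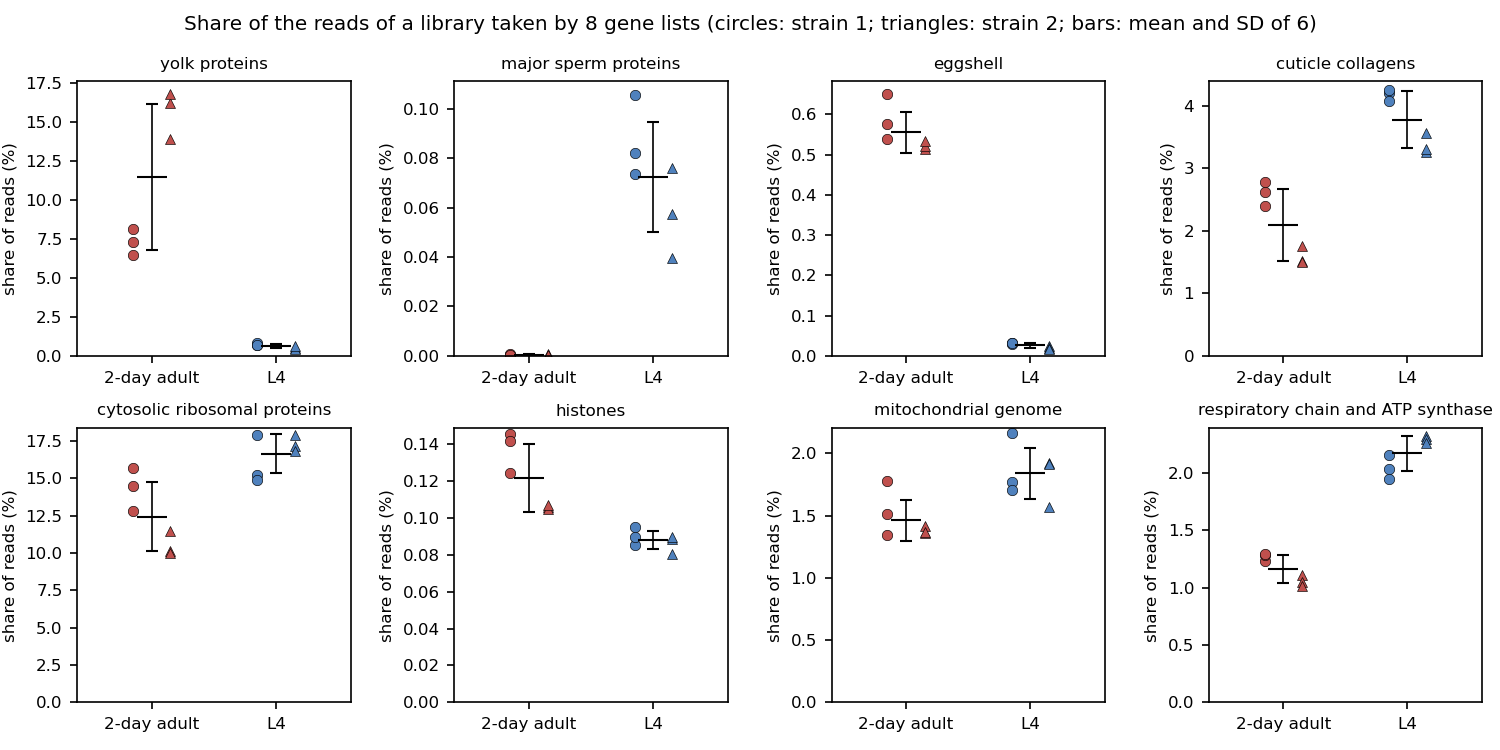
Share of a library's reads (%) taken by 8 gene lists, 2-day adults left and L4 right in each panel, circles for strain 1, triangles for strain 2, and bars for the mean and SD of 6 libraries. Yolk proteins averaged 11.5% in adults and 0.634% in L4, and in adults the strains lie apart.

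Genes of oocytes and early embryos rose almost without exception, 27 of 28 with 1 fall, and the median log2 was 5.12. In strain 2 alone 27 rose and 0 fell. puf-5 (F54C9.8, chromosome II, 8575541 to 8577787), a Pumilio-family translational repressor of oocytes, stood at 274, 351 and 389 CPM in adults, against 0.762, 2.21 and 4.42 CPM in L4. pos-1 (F52E1.1, chromosome V, 8414086 to 8415254), a zinc-finger regulator of maternal mRNAs, was at 375, 392 and 404 CPM in adults, against 2.29, 4.14 and 7.22 CPM in L4. Both were under 10 CPM in every L4 library. oma-1 (C09G9.6, chromosome IV, 8888976 to 8890999), needed for oocyte maturation, had 149, 187 and 209 CPM in adults, against 1.33, 2.62 and 4.88 CPM in L4. cey-2 (F46F11.2, chromosome I, 5619569 to 5620669), a Y-box RNA-binding protein, measured 1608, 2168 and 2353 CPM in adults, against 29.4, 45.8 and 90.3 CPM in L4. Adults and L4 lay far apart in each, with rises of 155-fold (puf-5), 97.7-fold (pos-1), 65.1-fold (oma-1) and 40.5-fold (cey-2). The 1 fall was that of par-1 (H39E23.1, chromosome V, 14112033 to 14145367), a polarity kinase, at 120.2, 142.8 and 157 CPM in adults, against 158, 167 and 197 CPM in L4 (log2 -0.30 ± 0.086 SE, edgeR adjusted p = 0.00515).

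All 16 eggshell genes rose (15 in strain 2 alone), with a median log2 of 5.61, and the list took 0.555 ± 0.0510% of the reads in adults and 0.0260 ± 0.00614% in L4 (SD, n = 6 and 6, exact permutation p = 0.00216). cpg-2 (B0280.5, chromosome III, 7102092 to 7103990) and cpg-1 (C07G2.1, chromosome III, 4489359 to 4491392) encode chondroitin proteoglycans of the shell. cpg-2 stood at 1089, 1257 and 1382 CPM in adults, against 5.27, 13.7 and 23.4 CPM in L4. cpg-1 was at 331, 375 and 496 CPM in adults, against 1.56, 4.25 and 6.34 CPM in L4. egg-1 (B0244.8, chromosome III, 5728180 to 5730159), an oocyte surface protein of the LDL receptor family that sperm entry needs, had 214, 281 and 339.9 CPM in adults, against 1.82, 3.73 and 7.71 CPM in L4. The 3 genes were 103-fold, 92.5-fold and 72.3-fold higher in adults.

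Transcripts of the major sperm protein genes were close to absent from adults. All 30 major sperm protein genes tested fell, of 31 in the tables, and 48.3% of all genes fell. Their median log2 was -7.75 (-7.65 with genes at 0 reads put at their bound), with 29 falls in strain 2 alone. Together they took 0.000497 ± 0.000261% of the reads in adults and 0.0724 ± 0.0224% in L4 (SD, n = 6 and 6, exact permutation p = 0.00216). msp-81 (K07F5.1, chromosome IV, 9836034 to 9836417) measured 0, 0.0554 and 0.266 CPM in adults, against 22.6, 40.9 and 55.3 CPM in L4. msp-10 (K07F5.2, chromosome IV, 9837649 to 9838032) was 673-fold (95% counting interval 230.1 to 3268) lower in adults, where it had at most 3 reads.

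Of 60 sperm function genes, 47 fell and 8 rose (40 and 8 in strain 2 alone). gsp-3 (W09C3.6, chromosome I, 4709259 to 4710712), a protein phosphatase of sperm, stood at 0, 0 and 0.155 CPM in adults, against 8.71, 13.3 and 15.3 CPM in L4. ssp-34 (ZC168.6, chromosome IV, 10738279 to 10738602), a sperm-specific gene, was at 0, 0 and 0.111 CPM in adults, against 5.80, 6.39 and 11.1 CPM in L4. spe-9 (C17D12.6, chromosome I, 11582743 to 11586069), a sperm surface protein with EGF repeats, was low throughout, at 0, 0.108 and 0.228 CPM in adults, against 0.341, 0.587 and 1.002 CPM in L4 (log2 -2.34 ± 0.67 SE, edgeR adjusted p = 0.00513). Among the members that rose are 3 regulators that act early, before sperm are made. The transcription factor gene spe-44 (C25G4.4, chromosome IV, 12452063 to 12454215) had 12.9, 18.2 and 24.4 CPM in adults, against 0.644, 1.58 and 2.37 CPM in L4. The CPEB-family genes cpb-1 (C40H1.1, chromosome III, 9322310 to 9324913) and fog-1 (Y54E10A.4, chromosome I, 3211046 to 3217267), of which fog-1 directs germ cells towards sperm, stood at 37.7, 51.9 and 60.3 and at 10.7, 13.6 and 18.4 CPM in adults, against 0.769, 1.86 and 2.49 and 0.841, 1.06 and 1.40 CPM in L4. Each of the 3 was higher in all adult libraries than in any L4 library, by 12.2-fold, 29.3-fold and 12.8-fold.

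Germline machinery genes rose throughout. All 36 meiosis genes, all 29 germ granule and germline RNA genes and all 51 replication and mitosis genes tested rose, in strain 2 alone as well, with median log2 of 3.23, 3.39 and 2.28. xnd-1 (C05D2.5, chromosome III, 5604460 to 5607556), which sets where crossovers fall on autosomes, measured 84.7, 124 and 137 CPM in adults, against 2.65, 5.74 and 8.72 CPM in L4. zim-1 (T07G12.6, chromosome IV, 10547086 to 10555513), a pairing-centre zinc-finger protein, stood at 41.2, 60.5 and 71.1 CPM in adults, against 1.56, 3.11 and 4.39 CPM in L4. These 2 meiotic genes rose 20.8-fold and 20.7-fold.

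meg-1 (K02B9.1, chromosome X, 13927036 to 13929634) and meg-4 (C36C9.1, chromosome X, 1682954 to 1686419) encode disordered proteins of P granules in embryos. meg-1 was at 38.6, 50.2 and 56.1 CPM in adults, against 0.110, 0.537 and 1.01 CPM in L4, and meg-4 at 11.3, 14.3 and 15.3 CPM in adults, against 0, 0.224 and 0.524 CPM in L4. The B-type cyclin genes cyb-2.1 (Y43E12A.1, chromosome IV, 10985985 to 10987426) and cyb-2.2 (H31G24.4, chromosome I, 4114861 to 4116370) stood at 101.2, 137 and 174 and at 153, 201 and 273 CPM in adults, against 2.62, 3.75 and 9.66 and 3.31, 7.16 and 14.54 CPM in L4. These cyclins drive entry into mitosis, and both rose about as much, by 4.90 and 4.85 on the log2 scale.

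Of 54 histone genes tested, 13 rose (24.1%, against 33.9% of all genes), 26 fell (48.1%, against 48.3%) and 15 were not called, with 12 rises and 21 falls in strain 2 alone and a median log2 of -0.74 that turns positive when only genes of at least 5 CPM are kept. Together they took 0.122 ± 0.0185% of the reads in adults and 0.0881 ± 0.00489% in L4 (SD, n = 6 and 6, exact permutation p = 0.00216). his-68 (T23D8.6, chromosome I, 9989132 to 9989515) had 13.2, 15.9 and 22.3 CPM in adults, against 0.381, 1.07 and 1.43 CPM in L4. his-67 (T23D8.5, chromosome I, 9988452 to 9988763) measured 2.54, 4.91 and 9.02 CPM in adults, against 0.0327, 0.0504 and 0.439 CPM in L4. Both were under 2 CPM in every L4 library. his-71 (F45E1.6, chromosome X, 7981382 to 7982070), a replacement histone of the H3.3 type, stood at 9.97, 13.999 and 18.9 CPM in adults, against 79.8, 93.5 and 96.2 CPM in L4. his-3 (T10C6.12, chromosome V, 16040808 to 16041191) was at 0.0326, 0.378 and 0.559 CPM in adults, against 4.64, 5.77 and 9.96 CPM in L4. his-68 and his-67 were higher and his-71 and his-3 lower in every adult library.

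Of 57 genes first transcribed in the embryo, 34 passed the filter, of which 19 rose and 11 fell (11 and 10 in strain 2 alone, where 23 were tested), and 8 had 0 reads in L4, so that the median (1.73) rests on a filter that adults alone could pass for some (it is -0.27 in strain 1 alone, over 24 members). nhr-2 (C32F10.6, chromosome I, 5818474 to 5821134), a nuclear receptor of early embryos, had 3.97, 6.06 and 8.17 CPM in adults, against 0, 0 and 0.423 CPM in L4. tbx-9 (T07C4.6, chromosome III, 10340006 to 10341858), a T-box factor, measured 6.505, 7.77 and 10.9 CPM in adults, against 0, 0.313 and 0.622 CPM in L4. sdz-24 (K07E8.3, chromosome II, 658669 to 659846) stood at 0.354, 1.33 and 2.69 CPM in adults, against 441, 560.4 and 660.0 CPM in L4 and was the largest fall of the list (log2 -8.68 ± 0.38 SE, edgeR adjusted p = 1.02e-10). The even-skipped homologue vab-7 (M142.4, chromosome III, 10920344 to 10926041), which larvae also use in neurons, was at 0, 0.132 and 0.336 CPM in adults, against 4.25, 7.67 and 9.43 CPM in L4.

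Of 154 cuticle collagen genes tested (174 in the tables), 125 fell and 17 rose, with a median log2 of -7.33, and in strain 2 alone 116 fell and 18 rose. 7 had 0 reads in adults. Yet collagens still took 2.095 ± 0.574% of the reads in adults and 3.77 ± 0.455% in L4 (SD, n = 6 and 6, exact permutation p = 0.00216), and some of the genes that rose were abundant. col-95 (Y41C4A.16, chromosome III, 11703994 to 11705091) had 1279.7, 1814 and 2386 CPM in adults, against 1.76, 5.67 and 8.52 CPM in L4, a 335-fold rise (log2 8.39 ± 0.29 SE, edgeR adjusted p = 7.43e-12). Chosen after their values were seen, col-101 (K02D7.3, chromosome IV, 325435 to 327020) was at 1414, 1741 and 2223 CPM in adults, against 58.6, 118.7 and 184 CPM in L4, col-143 (T15B7.3, chromosome V, 6835635 to 6836704) at 1346, 1744 and 2096 CPM in adults, against 73.4, 143.1 and 174 CPM in L4, and col-119 (C53B4.5, chromosome IV, 8978926 to 8979795) at 1362, 2001 and 2849 CPM in adults, against 328, 538 and 798 CPM in L4. col-122 (T05A1.2, chromosome IV, 9563379 to 9564441) and col-140 (F26F12.1, chromosome V, 5835855 to 5836834) stood at 1808, 2044 and 2419 and at 1319.6, 1687 and 2275 CPM in adults, against 482, 707 and 923 and 396, 592 and 770.4 CPM in L4. The 5 genes rose by 3.89, 3.68, 1.93, 1.62 and 1.55 on the log2 scale, in order. col-116 (F17E9.1, chromosome IV, 8355906 to 8357919) rose from a low level, at 4.17, 5.10 and 9.70 CPM in adults, against 0, 0.295 and 0.769 CPM in L4.

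All 6 furrow collagens fell, in strain 2 alone as well, with a median log2 of -8.81. They line the circumferential furrows of the cuticle, and their loss gives dumpy animals. dpy-7 (F46C8.6, chromosome X, 7536467 to 7537792) stood at 0, 0.337 and 0.847 CPM in adults, against 157, 193 and 268 CPM in L4, dpy-8 (C31H2.2, chromosome X, 5148804 to 5150476) at 0, 0.133 and 0.181 CPM in adults, against 154, 206 and 289.6 CPM in L4, and dpy-3 (EGAP7.1, chromosome X, 2144605 to 2145647) at 0, 0.0932 and 0.302 CPM in adults, against 93.4, 120.4 and 168 CPM in L4. No adult library reached 1 CPM in any of the 3.

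Among 11 collagens known from the adult cuticle and its struts, 10 fell, in strain 2 alone also 10, and col-19 was not called, and the median log2 was -11.04. bli-1 (C09G5.6, chromosome II, 10708960 to 10712156), a collagen of the struts between the layers of the adult cuticle, was at 0, 0.191 and 0.521 CPM in adults, against 195, 353 and 389 CPM in L4. col-38 (F54C9.4, chromosome II, 8568035 to 8569088) had 0.566, 2.31 and 2.66 CPM in adults, against 345, 626 and 720.1 CPM in L4. col-63 (ZK265.2, chromosome I, 8243694 to 8244963) measured 0, 0.0163 and 0.151 CPM in adults, against 162, 287 and 372 CPM in L4. The adult cuticle is laid down in L4, and in both strains these genes were read almost only then.

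Of 39 moulting genes, 36 fell and 2 rose, with a median log2 of -4.44 (34 fell and 1 rose in strain 2 alone). noah-1 (C34G6.6, chromosome I, 5874416 to 5878958), a zona pellucida domain protein of the apical matrix, stood at 1.82, 3.61 and 4.49 CPM in adults, against 498, 607 and 639.9 CPM in L4. lpr-3 (W04G3.8, chromosome X, 11057401 to 11059793), a lipocalin of the same matrix, was at 0.0391, 0.275 and 0.362 CPM in adults, against 258, 318 and 373 CPM in L4, and the cuticlin cut-2 (F53F1.5, chromosome V, 13414949 to 13416064) at 0, 0.0302 and 0.508 CPM in adults, against 116, 173 and 252 CPM in L4. nas-37 (C17G1.6, chromosome X, 9944844 to 9949063), an astacin protease that opens the old cuticle, fell less, at 18.9, 23.4 and 44.5 CPM in adults, against 75.6, 96.6 and 108 CPM in L4 (log2 -1.81 ± 0.19 SE, edgeR adjusted p = 6.83e-07). nekl-2 (ZC581.1, chromosome I, 6663161 to 6665160), a NIMA-related kinase, and rde-12 (F58G11.2, chromosome V, 13665389 to 13669292), an RNA helicase also of the RNAi pathway, rose by 0.66 and 0.19 on the log2 scale. Their libraries overlapped between stages. The rise of rde-12 was called in 12 of 26 alternatives (adjusted p up to 0.252), was not called in strain 2 alone, and turns negative under upper-quartile scaling.

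Hedgehog-related genes, secreted products of the epidermis in nematodes, fell in 37 of 48 tested and rose in 3 (30 and 1 in strain 2 alone), with a median log2 of -5.001 and 8 at 0 reads in adults. Of the patched-related genes, relatives of the hedgehog receptor, 20 of 25 fell and 3 rose (20 and 4 in strain 2 alone). ptr-4 (C45B2.7, chromosome X, 6060758 to 6065986) had 0.112, 0.309 and 0.544 CPM in adults, against 149.98, 178 and 212 CPM in L4. ptr-10 (F55F8.1, chromosome I, 5662143 to 5667160) measured 0, 0.0675 and 0.576 CPM in adults, against 37.6, 41.8 and 49.1 CPM in L4. Both were under 1 CPM in every adult library. ptc-1 (ZK675.1, chromosome II, 7893222 to 7900515), a patched protein of the germ line, stood at 283, 339.6 and 413 CPM in adults, against 67.02, 84.8 and 111 CPM in L4. ptr-2 (C32E8.8, chromosome I, 3789309 to 3792797) was at 103, 140.3 and 153 CPM in adults, against 45.8, 50.1 and 53.8 CPM in L4. The falls of ptr-4 and ptr-10 were -9.15 and -7.96, and the rises of ptc-1 and ptr-2 2.03 and 1.42, on the log2 scale.

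The heterochronic genes set the order of larval stages, and 14 of 18 fell while 4 rose, as they did in strain 2 alone. lin-42 (F47F6.1, chromosome II, 1233236 to 1252359), a Period homologue that cycles with the moults, had 0.604, 1.26 and 1.98 CPM in adults, against 159.6, 205 and 226 CPM in L4. lin-29 (W03C9.4, chromosome II, 11917642 to 11935343), the zinc-finger factor of the larval-to-adult switch in the epidermis, measured 1.24, 2.07 and 3.17 CPM in adults, against 32.5, 35.8 and 42.1 CPM in L4. lin-14 (T25C12.1, chromosome X, 11465560 to 11485871), an early larval factor, stood at 4.85, 9.17 and 14.8 CPM in adults, against 21.1, 23.8 and 30.2 CPM in L4. These 3 genes fell in both strains alone. lin-28 (F02E9.2, chromosome I, 8407630 to 8410804), which blocks let-7 processing and is also expressed in the germ line, was at 52.1, 60.2 and 62.6 CPM in adults, against 15.8, 19.2 and 22.9 CPM in L4. lin-41 (C12C8.3, chromosome I, 9334800 to 9342496), which also acts in oocytes, had 114, 149 and 194 CPM in adults, against 17.7, 21.8 and 33.4 CPM in L4. lin-28 and lin-41 rose 3.05-fold and 6.44-fold, without overlap between the stages.

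Of 27 genes of the vulva and uterus, 13 rose and 11 fell (12 and 9 in strain 2 alone), with a median log2 of 0.32 that turns negative with upper-quartile factors. lin-3 (F36H1.4, chromosome IV, 11054308 to 11063768), the EGF that induces the vulva, measured 21.2, 34.4 and 46.2 CPM in adults, against 0.183, 0.515 and 1.53 CPM in L4. apx-1 (K08D9.3, chromosome V, 3210196 to 3223221), a Delta-like ligand that mothers also supply to embryos, stood at 56.2, 66.6 and 82.5 CPM in adults, against 0.806, 1.49 and 2.99 CPM in L4. The netrin unc-6 (F41C6.1, chromosome X, 6889674 to 6897147) was at 0.636, 1.24 and 3.09 CPM in adults, against 15.5, 18.1 and 21.4 CPM in L4, and the cadherin cdh-3 (ZK112.7, chromosome III, 7741229 to 7754448) at 0.813, 2.53 and 4.198 CPM in adults, against 22.9, 27.9 and 36.7 CPM in L4. egl-17 (F38G1.2, chromosome X, 489685 to 492318), an FGF of vulval cells in larvae, was barely read, at 0, 0 and 0.177 CPM in adults, against 0, 0.328 and 0.586 CPM in L4, with overlap (log2 -3.004 ± 1.17 SE, edgeR adjusted p = 0.0284), and the call held in 17 of 23 alternatives (adjusted p up to 0.0759).

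Of 15 sheath and spermatheca genes, 7 rose and 7 fell (6 and 7 in strain 2 alone). The innexins inx-22 (Y47G6A.2, chromosome I, 3608518 to 3611844) and inx-14 (F07A5.1, chromosome I, 7350309 to 7352235), which form the oocyte side of gap junctions with the sheath, stood at 56.5, 79.3 and 87.3 and at 85.3, 110.3 and 132 CPM in adults, against 0.828, 1.59 and 1.996 and 1.89, 3.39 and 7.02 CPM in L4. ceh-18 (ZC64.3, chromosome X, 3843367 to 3857797), a POU factor of the sheath, stood at 4.56, 5.58 and 6.45 CPM in adults, against 18.99, 21.3 and 25.8 CPM in L4, and the filamin fln-2 (C23F12.1, chromosome X, 9397701 to 9427253) at 32.7, 40.1 and 68.8 CPM in adults, against 107, 130.0 and 182 CPM in L4. Basement membrane genes fell in 13 of 16 and rose in 2, in strain 2 alone also 13 and 2. Perlecan, unc-52 (ZC101.2, chromosome II, 14647321 to 14684456), was at 33.7, 42.9 and 53.0 CPM in adults, against 282, 298 and 329 CPM in L4, and hemicentin, him-4 (F15G9.4, chromosome X, 9717565 to 9753764), at 3.11, 4.58 and 5.31 CPM in adults, against 48.5, 77.1 and 100.5 CPM in L4. The collagen XVIII gene cle-1 (C36B1.1, chromosome I, 8705668 to 8724279) rose by 0.73 on the log2 scale.

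Muscle transcripts made up less of the adult libraries. Of 49 body wall muscle genes, 43 fell and 2 rose, in strain 2 alone also 43 and 2, with a median log2 of -2.26. unc-54 (F11C3.3, chromosome I, 14855901 to 14863482), the major myosin heavy chain, stood at 131, 161 and 214 CPM in adults, against 781, 1258 and 1543 CPM in L4. myo-3 (K12F2.1, chromosome V, 12226817 to 12234343), the second body wall myosin and the source of the promoter of the transgene, was at 11.3, 15.4 and 17.3 CPM in adults, against 105, 191 and 226 CPM in L4. Counts are per gene and do not tell transgene from endogenous sequence, and gfp was not analysed here. tni-1 (F42E11.4, chromosome X, 11375887 to 11377470), troponin I, had 4.96, 8.99 and 11.5 CPM in adults, against 198, 279 and 289.6 CPM in L4. dim-1 (C18A11.7, chromosome X, 8050466 to 8058220), an immunoglobulin-domain muscle protein, measured 37.3, 50.6 and 64.5 CPM in adults, against 435, 669 and 756 CPM in L4. The log2 changes were -2.92 (unc-54), -3.61 (myo-3), -4.96 (tni-1) and -3.63 (dim-1). The members that rose were act-2 (T04C12.5, chromosome V, 11076777 to 11078154), an actin used in many tissues, at 736, 852 and 964 CPM in adults, against 317, 414 and 472 CPM in L4, and unc-94 (C06A5.7, chromosome I, 5992661 to 6003379), a tropomodulin, by 0.27 on the log2 scale with overlap between stages, a value that turns negative with upper-quartile factors.

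Of 25 genes of pharyngeal muscle and gland, 19 fell and 2 rose (17 and 1 in strain 2 alone), and 5 members had 0 reads in adults. abu-13 (F57B9.9, chromosome III, 6941888 to 6945898) and abu-12 (F52D1.3, chromosome X, 450446 to 457610), of a family of glutamine-rich proteins in the pharynx, stood at 0, 0.0163 and 0.199 and at 0, 0.106 and 0.671 CPM in adults, against 52.2, 69.2 and 85.5 and 35.6, 39.5 and 48.1 CPM in L4. Their ranges lay far apart. tni-4 (W03F8.1, chromosome IV, 5204591 to 5207124), a pharyngeal troponin I, overlapped, at 9.19, 10.2 and 10.6 CPM in adults, against 5.20, 7.82 and 9.51 CPM in L4, and its call held in 20 of 26 alternatives (adjusted p up to 0.758).

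Neuronal genes fell in 37 of 46 and rose in 5, with a median log2 of -2.64 (36 fell and 5 rose in strain 2 alone). The tubulins of touch neurons led the falls: mec-7 (ZK154.3, chromosome X, 7774856 to 7776689) stood at 2.58, 3.80 and 5.82 CPM in adults, against 118, 150.1 and 191 CPM in L4. mec-12 (C44B11.3, chromosome III, 3131574 to 3139234) was at 4.05, 5.15 and 11.2 CPM in adults, against 128, 169.7 and 226 CPM in L4. tbh-1 (H13N06.6, chromosome X, 15500256 to 15504895) and tdc-1 (K01C8.3, chromosome II, 8270597 to 8273615), enzymes of octopamine and tyramine synthesis that the gonadal sheath also expresses, rose, with 114.6, 134 and 202 and 97.8, 116 and 142.7 CPM in adults, against 12.9, 20.2 and 30.1 and 37.5, 43.98 and 51.3 CPM in L4. No library of one stage reached those of the other in any of the 4 genes.

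Of 30 FMRFamide-like peptide genes, 26 fell and 2 rose (21 and 2 in strain 2 alone). flp-15 (ZK525.1, chromosome III, 13663400 to 13667839) had 0.707, 1.28 and 4.06 CPM in adults, against 36.1, 42.5 and 48.2 CPM in L4. flp-20 (E01H11.3, chromosome X, 9349276 to 9349894) measured 0.460, 1.23 and 2.11 CPM in adults, against 22.5, 28.6 and 31.9 CPM in L4. flp-6 (F07D3.2, chromosome V, 9471975 to 9473792) went the other way, at 88.6, 142 and 212 CPM in adults, against 3.21, 6.62 and 9.39 CPM in L4, and so did flp-17 (C52D10.11, chromosome IV, 17190204 to 17191891), at 3.96, 6.11 and 12.1 CPM in adults, against 0.761, 1.59 and 2.64 CPM in L4. Of 21 insulin-like peptide genes tested (37 in the tables), 7 rose (33.3%, against 33.9% of all genes) and 8 fell (38.1%, against 48.3%). In strain 2 alone 8 rose and 7 fell. The median is negative in the joint fit (-0.57) and positive in strain 2 alone (0.69), where 17 were tested. ins-18 (T28B8.2, chromosome I, 8147427 to 8149651) and ins-27 (ZC334.11, chromosome I, 14027236 to 14027588) fell by 4.67 and 4.36 on the log2 scale. ins-7 (ZK1251.2, chromosome IV, 9682011 to 9682845), a DAF-2 agonist, changed by 1.70 in strain 1 and by 4.71 in strain 2 on the log2 scale (strain 1 minus strain 2 -3.16 ± 0.63 SE, edgeR adjusted p = 0.00165).

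The change of ribosomal protein genes differed between the strains. Of 82, 67 fell and 2 rose in the joint fit, with a median of -0.44, close to that of all genes (-0.49). In strain 1 alone 4 fell and 5 rose, with a median of -0.088. In strain 2 alone 75 fell and 2 rose, with a median of -0.66. The list took 12.4 ± 2.32% of the reads in adults and 16.7 ± 1.32% in L4 (SD, n = 6 and 6, exact permutation p = 0.00866, 0.00989 adjusted over 8 shares). A pair of paralogues moved in opposite directions. rpl-11.1 (T22F3.4, chromosome V, 3585312 to 3586064) stood at 1279, 1919 and 2348 CPM in adults, against 239.7, 299 and 452 CPM in L4. rpl-11.2 (F07D10.1, chromosome X, 2241738 to 2242618) was at 365, 498 and 703 CPM in adults, against 2203, 2362 and 2832 CPM in L4. rpl-25.2 (F52B5.6, chromosome I, 8329062 to 8329647) and rpl-25.1 (F55D10.2, chromosome X, 4715178 to 4715796) did likewise, with 617, 858 and 1038 and 97.6, 159 and 247 CPM in adults, against 422, 487 and 564 and 531, 741 and 826 CPM in L4. rpl-11.1 and rpl-25.2 lie on autosomes, and rpl-11.2 and rpl-25.1 on the X chromosome.

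Of 44 nuclear genes of the respiratory chain and ATP synthase, 40 fell and 4 rose, with a median log2 of -0.89 (40 fell and 3 rose in strain 2 alone), and the list took 1.16 ± 0.121% of the reads in adults and 2.17 ± 0.152% in L4 (SD, n = 6 and 6, exact permutation p = 0.00216). The members with the largest changes include paralogous copies of subunit genes. ucr-2.3 (T24C4.1, chromosome III, 879860 to 881458), of complex III, had 125, 173 and 217 CPM in adults, against 10.9, 15.9 and 20.3 CPM in L4. nduf-2.2 (T26A5.3, chromosome III, 6465222 to 6467206), of complex I, measured 114, 166 and 189 CPM in adults, against 14.2, 18.1 and 25.3 CPM in L4. cyc-2.2 (ZC116.2, chromosome V, 12611682 to 12612218), a cytochrome c, was 710.4-fold (95% counting interval 243 to 3447) lower in adults. gas-1 (K09A9.5, chromosome X, 15586786 to 15590397), of complex I, stood at 46.8, 58.0 and 85.3 CPM in adults, against 305, 354 and 391 CPM in L4. Genes of the mitochondrial genome took 1.46 ± 0.166% of the reads in adults and 1.84 ± 0.206% in L4 (SD, n = 6 and 6, exact permutation p = 0.0108, also adjusted, and 0.0519 adjusted when yolk and ribosomal RNA genes are left out of the totals). Of 14 tested 7 fell and 2 rose in the joint fit, none beyond 2-fold. In strain 2 alone 8 fell and 2 rose, but in strain 1 alone only 1 fell and 1 rose. The rises were those of MTCE.7 (MTCE.7, mitochondrial genome, 898 to 1593), at 48.7, 57.4 and 71.9 CPM in adults, against 25.1, 34.4 and 39.998 CPM in L4, and MTCE.33 (MTCE.33, mitochondrial genome, 10403 to 11354), at 30.6, 53.8 and 69.6 CPM in adults, against 22.4, 28.8 and 38.02 CPM in L4. Both are ribosomal RNA genes, and MTCE.33 overlapped between the stages. COX3 (MTCE.23, mitochondrial genome, 5678 to 6449), cytochrome oxidase subunit III, fell, at 1665, 1920.0 and 2069.9 CPM in adults, against 2414, 3030.4 and 3134 CPM in L4, as did MTCE.34 (MTCE.34, mitochondrial genome, 11356 to 11691), at 205, 298 and 581 CPM in adults, against 363, 478 and 567 CPM in L4, with overlap and with no call in strain 1 alone or without replicate 1 of the strain 1 adults (log2 -0.43).

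The carnitine palmitoyltransferases, which the study names and which carry long-chain fatty acids into mitochondria, split: 1 of 6 rose and 4 fell, in strain 2 alone as well. cpt-1 (Y46G5A.17, chromosome II, 12788244 to 12796452) was at 151, 156 and 166 CPM in adults, against 68.8, 74.1 and 91.6 CPM in L4, a 2.06-fold rise (log2 1.04 ± 0.077 SE, edgeR adjusted p = 1.28e-08). cpt-5 (F09F3.9, chromosome V, 13873195 to 13875888) stood at 11.1, 19.1 and 24.9 CPM in adults, against 60.9, 75.01 and 87.7 CPM in L4 (log2 -2.06 ± 0.15 SE, edgeR adjusted p = 9.61e-09), and cpt-4 (K11D12.4, chromosome V, 5023706 to 5027723) at 0.0651, 0.429 and 1.29 CPM in adults, against 15.7, 25.2 and 31.1 CPM in L4 (log2 -5.37 ± 0.48 SE, edgeR adjusted p = 1.69e-07). Each of the 3 lay apart between the stages. Of 38 fatty acid oxidation genes 30 fell and 3 rose (28 and 3 in strain 2 alone), and of 26 synthesis genes 18 fell and 1 rose (14 and 5 in strain 2 alone). Fatty acid synthase, fasn-1 (F32H2.5, chromosome I, 8975366 to 8986540), measured 39.8, 53.9 and 61.1 CPM in adults, against 466, 569.9 and 611 CPM in L4. The elongase elo-4 (C40H1.4, chromosome III, 9332269 to 9334274) fell by 3.34 on the log2 scale. The desaturase fat-5 (W06D12.3, chromosome V, 17725004 to 17726818) was the 1 rise in the joint fit, at 52.3, 106 and 168 CPM in adults, against 11.6, 15.02 and 27.9 CPM in L4.

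Among acyl-CoA dehydrogenases, acdh-8 (K05F1.3, chromosome II, 5794495 to 5796185) and acdh-6 (C02D5.1, chromosome III, 8561136 to 8563026) were at 0, 0 and 0.354 and at 0, 0.107 and 0.495 CPM in adults, against 8.38, 17.4 and 21.4 and 14.6, 16.5 and 21.3 CPM in L4. acdh-2 (C17C3.12, chromosome II, 5544778 to 5547492) overlapped, at 16.5, 34.5 and 67.5 CPM in adults, against 4.25, 11.1 and 18.4 CPM in L4 (log2 1.53 ± 0.34 SE, edgeR adjusted p = 9.97e-04). acox-1.5 (C48B4.1, chromosome III, 9586618 to 9592192), a peroxisomal acyl-CoA oxidase, stood at 41.05, 91.3 and 158 CPM in adults, against 23.7, 28.6 and 34.99 CPM in L4. Of 14 lipase and lipid droplet genes 4 rose (28.6%, against 33.9% of all genes) and 6 fell (42.9%, against 48.3%). In strain 2 alone 6 rose and 3 fell, and the median log2 is -0.77 in strain 1 and 0.15 in strain 2. lid-1 (C25A1.12, chromosome I, 10191273 to 10192832), a coactivator of the droplet lipase, was at 73.5, 81.9 and 93.0 CPM in adults, against 19.1, 21.2 and 24.7 CPM in L4. dgat-2 (F59A1.10, chromosome V, 17660303 to 17661810), which makes triacylglycerol, had 17.8, 36.1 and 58.9 CPM in adults, against 175, 189 and 217 CPM in L4. lid-1 rose and dgat-2 fell. lipl-6 (Y57E12B.3, chromosome V, 6931475 to 6934312), a lysosomal-type lipase, measured 0, 0.0163 and 0.224 CPM in adults, against 13.8, 16.1 and 19.997 CPM in L4.

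Of 37 lysozyme and saposin-like genes 9 rose (24.3%, against 33.9% of all genes) and 16 fell (43.2%, against 48.3%), with 4 rises and 20 falls in strain 1 alone and 14 rises and 9 falls in strain 2 alone. lys-7 (C02A12.4, chromosome V, 3481432 to 3482600), a lysozyme, stood at 6.03, 95.6 and 234 CPM in adults, against 0.196, 1.12 and 1.86 CPM in L4, with strain 1 adults at 12.1, 6.03 and 10.1 CPM and strain 2 adults at 225, 234 and 179 CPM. spp-8 (C28C12.5, chromosome IV, 8481664 to 8483621) was at 39.0, 99.4 and 167 CPM in adults, against 15.8, 22.5 and 29.3 CPM in L4. spp-13 (F08F1.6, chromosome X, 8417419 to 8418524) had 0, 0.154 and 0.816 CPM in adults, against 34.6, 67.03 and 69.3 CPM in L4. Both spp genes encode saposin-like proteins, as does spp-22 (ZK867.3, chromosome X, 7211705 to 7213956), which fell by 1.19 on the log2 scale. Of 39 intestinal proteases 25 fell (64.1%, against 48.3% of all genes) and 6 rose (15.4%, against 33.9%). In strain 2 alone 20 fell and 11 rose. asp-8 (F59D6.3, chromosome V, 3024549 to 3027931) measured 1.84, 2.49 and 7.83 CPM in adults, against 300.4, 337 and 395 CPM in L4, while asp-4 (R12H7.2, chromosome X, 13218985 to 13221462), a cathepsin D-like aspartyl protease, rose 2.03-fold and nep-4 (C53B7.7, chromosome X, 6860947 to 6863424), a neprilysin, by 1.06 on the log2 scale with overlap.

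Of 126 C-type lectin genes tested (216 in the tables), 33 rose and 61 fell (34 and 48 in strain 2 alone), or 26.2% and 48.4%, against 33.9% and 48.3% of all genes, with a median of -0.49. clec-87 (C25A1.8, chromosome I, 10184462 to 10185520) stood at 593, 619 and 652 CPM in adults, against 4.17, 7.43 and 13.5 CPM in L4. clec-180 (F32E10.3, chromosome IV, 7568893 to 7573766) was at 0.181, 0.269 and 0.820 CPM in adults, against 153, 199.9 and 230.0 CPM in L4, and clec-79 (F47C12.4, chromosome IV, 3973349 to 3975721) was 385-fold (95% counting interval 132 to 1871) lower in adults. Of 21 genes of the p38 immune pathway and its outputs 14 fell and 4 rose (13 and 5 in strain 2 alone). sysm-1 (T24B8.5, chromosome II, 9082626 to 9083193), a reporter gene of that pathway under the sequence name T24B8.5, had 76.4, 89.6 and 116 CPM in adults, against 0.215, 1.15 and 1.64 CPM in L4. irg-7 (F40F4.6, chromosome X, 3235754 to 3243636) was at 118, 268 and 598 CPM in adults, against 2614, 3216 and 4372 CPM in L4, irg-5 (F35E12.5, chromosome V, 13737010 to 13738474) at 3.61, 6.87 and 10.1 CPM in adults, against 45.2, 49.8 and 53.6 CPM in L4, and irg-2 (C49G7.5, chromosome V, 4042181 to 4043601) at 12.57, 15.4 and 18.6 CPM in adults, against 1.06, 3.11 and 4.52 CPM in L4. sysm-1 and irg-2 rose and irg-7 and irg-5 fell without overlap.

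Of 30 DAF-16 outputs and insulin signalling genes 9 rose (30%, against 33.9% of all genes) and 13 fell (43.3%, against 48.3%). In strain 2 alone 13 rose and 10 fell. The median was near 0 (0.12) and is negative in strain 1 alone and with upper-quartile factors. dod-23 (F49E12.2, chromosome II, 8398161 to 8399164) stood at 181, 331 and 445 CPM in adults, against 7.69, 8.42 and 12.8 CPM in L4, dod-17 (K10D11.1, chromosome IV, 12976303 to 12978343) at 2.89, 7.31 and 13.4 CPM in adults, against 59.8, 68.6 and 87.9 CPM in L4, and dod-22 (F55G11.5, chromosome IV, 12965374 to 12967392) at 3.39, 6.57 and 8.502 CPM in adults, against 23.1, 35.3 and 44.3 CPM in L4. Of 166 detoxification genes (glutathione transferases, cytochromes P450 and glucuronosyltransferases) 38 rose (22.9%, against 33.9% of all genes) and 87 fell (52.4%, against 48.3%). In strain 2 alone 41 rose and 72 fell. cyp-31A2 (H02I12.8, chromosome IV, 11403961 to 11406091), which makes lipids of the eggshell barrier, was at 66.4, 87.02 and 108 CPM in adults, against 0.696, 2.44 and 5.40 CPM in L4. cyp-13B1 (F02C12.5, chromosome X, 13406674 to 13409643) had 0.141, 0.625 and 0.912 CPM in adults, against 23.7, 29.6 and 41.5 CPM in L4. cyp-23A1 (B0304.3, chromosome II, 4512211 to 4516133) measured 0, 0.179 and 0.261 CPM in adults, against 7.45, 9.73 and 12.31 CPM in L4.

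Of 77 heat shock and chaperone genes 37 rose and 26 fell (32 and 29 in strain 2 alone), with a median of 0.22 that turns negative with upper-quartile factors. sip-1 (F43D9.4, chromosome III, 10506106 to 10506801), a small heat shock protein of oocytes and embryos, stood at 479, 609.6 and 752 CPM in adults, against 5.37, 7.48 and 17.5 CPM in L4. dnj-26 (Y39C12A.8, chromosome IV, 12251093 to 12252679), a J-domain gene, was at 20.7, 35.5 and 42.8 CPM in adults, against 0.644, 2.44 and 3.91 CPM in L4. Both rose. cyn-6 (F42G9.2, chromosome III, 773414 to 774159), a cyclophilin, had 13.3, 15.7 and 23.8 CPM in adults, against 189, 225 and 267 CPM in L4. hsp-12.1 (T22A3.2, chromosome I, 10581538 to 10582615), another small heat shock gene, measured 0.566, 1.33 and 2.205 CPM in adults, against 7.62, 11.6 and 12.8 CPM in L4. Both of these fell. Proteasome genes rose in 30 of 33 with no fall (21 rises in strain 2 alone), by little: the median was 0.47 and stayed above 0 under each of the 4 other scalings, lowest at 0.068. rpn-2 (C23G10.4, chromosome III, 6199184 to 6202594), of the regulatory particle, stood at 256, 311 and 349.6 CPM in adults, against 146, 161 and 164 CPM in L4. rpn-6.2 (F59B2.5, chromosome III, 8999817 to 9001999) was at 20.9, 25.6 and 30.9 CPM in adults, against 6.03, 9.08 and 12.56 CPM in L4.

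Of 24 splicing factor genes 12 rose and 10 fell (9 and 9 in strain 2 alone). rsp-5 (T28D9.2, chromosome II, 6490165 to 6491340), an SR protein, had 91.0, 124 and 164 CPM in adults, against 33.9, 39.2 and 42.8 CPM in L4. asd-1 (R74.5, chromosome III, 4197285 to 4202288), a Fox-1 family protein, measured 31.4, 34.2 and 39.0 CPM in adults, against 13.1, 15.7 and 21.1 CPM in L4. Both rose, while the following fell. asd-2 (T21G5.5, chromosome I, 6877059 to 6892143), a STAR-family factor of muscle, stood at 4.80, 6.95 and 9.14 CPM in adults, against 62.2, 68.4 and 72.6 CPM in L4. mec-8 (F46A9.6, chromosome I, 9441010 to 9444227), needed by touch neurons and muscle, was at 4.61, 6.85 and 12.2 CPM in adults, against 32.6, 34.2 and 38.7 CPM in L4. mbl-1 (K02H8.1, chromosome X, 16978608 to 17010302), the muscleblind gene of the study (chosen after its values were seen), had 7.30, 15.8 and 23.4 CPM in adults, against 29.3, 31.7 and 44.6 CPM in L4, without overlap (log2 -1.26 ± 0.22 SE, edgeR adjusted p = 1.19e-04), with -1.73 in strain 1 and -0.64 in strain 2.

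Among the nuclear chromosomes, the X had the lowest share of rises. Of 2307 X-linked genes tested 16.2% rose and 63.9% fell, with a median log2 of -1.16. On the autosomes 29.5% (V) to 42.6% (III) rose and 39.4% (III) to 51.6% (V) fell, with medians from -0.80 on V to 0.044 on III. The part of germline, muscle and other tissue genes in this split was not tested. The summed mean CPM of X-linked genes was nevertheless higher in adults (153000 CPM, against 121600 in L4), with most of the yolk genes among them.

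The stage change was not the same in both 0CUG strains. An interaction test (edgeR, 12 libraries) called 3359 of 16384 genes (20.5%), 767 with a more positive change in strain 1 and 2592 with a more negative one. That split depends on the scaling. It was 2204 and 1921 with DESeq2's size factors in edgeR, 2529 and 2259 by DESeq2, 1401 and 2107 with library totals, and 2132 and 1721 without yolk and ribosomal RNA genes. Without replicate 1 of the strain 1 adults it was 1837 and 1355, and without replicate 2 1728 and 2018. Of the 3306 called genes with a value in each strain alone, 2619 changed in the same direction in both. Tested against a 2-fold difference (glmTreat) 498 genes were called, 49 more positive in strain 1 and 449 more negative. The strain 1 L4 libraries, which held transcripts of both sets of genes that set the strains apart in adults, enter each of these differences. Their part in them was not tested. Where a group had 0 reads, the fitted log2 difference depends on the prior count of the fit.

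Yolk genes rose less in strain 1, vit-2 by 3.47 there and by 5.07 in strain 2 (strain 1 minus strain 2 -1.76 ± 0.20 SE, edgeR adjusted p = 8.99e-06). gly-17 (T15D6.3, chromosome I, 12376904 to 12378674), a glycosyltransferase family gene, stood at 0, 0 and 0 CPM in strain 1 adults, 20.2, 23.3 and 19.1 CPM in strain 2 adults, 3.19, 7.10 and 5.85 CPM in strain 1 L4 and 4.44, 5.82 and 6.49 CPM in strain 2 L4 (-12.34 ± 0.75 SE, edgeR adjusted p = 7.99e-08). cky-1 (C15C8.2, chromosome V, 12736703 to 12741205) and dsl-4 (F16B12.2, chromosome X, 14090389 to 14092054), a bHLH-PAS factor and a Notch-ligand family gene, also had 0 reads in strain 1 adults, with 2.79, 3.55 and 3.99 CPM (cky-1) and 3.71, 5.55 and 4.40 CPM (dsl-4) in strain 2 adults. clec-251 (F11D11.8, chromosome V, 18745718 to 18746987) and clec-252 (F11D11.7, chromosome V, 18747943 to 18748826), neighbours on chromosome V, had 7.06, 6.81 and 6.91 CPM (clec-251) and 6.73, 6.09 and 6.39 CPM (clec-252) in strain 1 L4, and at most 0.224 CPM in any adult library or any L4 library of strain 2. All 5 genes changed more negatively in strain 1, although clec-251 was not called without replicate 2 of the strain 2 adults (-7.80) nor clec-252 without replicate 3 (-5.24), and gly-17 and dsl-4 are among the 16 genes read only in strain 2 adults.

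In the other direction pfk-1.2 (C50F4.2, chromosome V, 9531801 to 9534537), a phosphofructokinase gene, stood at 23.7, 26.3 and 23.1 CPM in strain 1 adults, 0, 0 and 0 CPM in strain 2 adults, 5.37, 7.46 and 5.01 CPM in strain 1 L4 and 2.65, 2.45 and 1.66 CPM in strain 2 L4 (11.22 ± 0.72 SE, edgeR adjusted p = 1.11e-07). lad-2 (Y54G2A.25, chromosome IV, 2964334 to 2978484), an L1CAM-family adhesion gene, stood at 118.9, 145 and 135 CPM in strain 1 adults, 0, 0.586 and 1.19 CPM in strain 2 adults, 34.4, 33.8 and 38.5 CPM in strain 1 L4 and 15.8, 13.95 and 17.8 CPM in strain 2 L4 (6.65 ± 0.55 SE, edgeR adjusted p = 7.69e-06). Neither pfk-1.2 nor lad-2 was called in the joint fit, and the strains changed in opposite directions, beyond the spread of their libraries. The warthog gene wrt-4 (ZK678.5, chromosome X, 15752257 to 15757269), the collagen col-137 (Y51H4A.9, chromosome IV, 16601480 to 16602776) and the neprilysin gene nep-8 (F18A12.4, chromosome II, 3403835 to 3406851) fell in both strains, and in strain 2 adults had at most 0.283 CPM in any library. Strain 1 minus strain 2 was 7.45, 8.5 and 8.07.

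**Figure D5:**
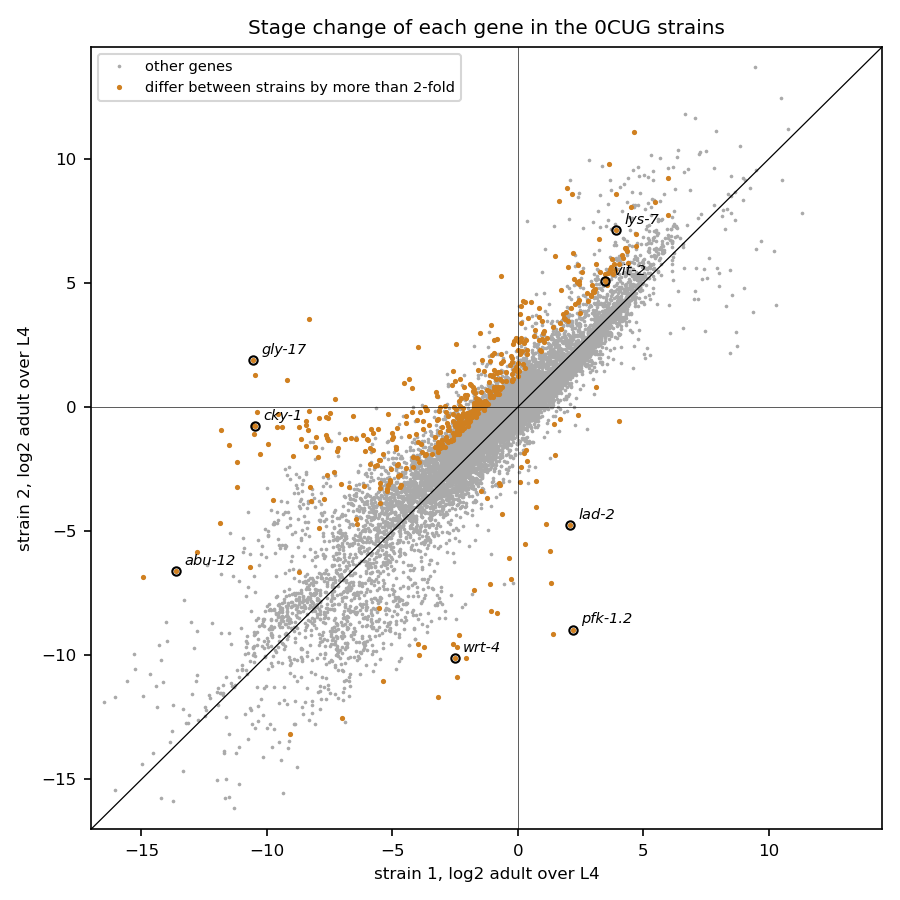
Log2 change, 2-day adult over L4, of each gene in strain 1 (x) and in strain 2 (y), from fits of 6 libraries each, with the line of equal change. Genes whose change differs between strains by more than 2-fold (498, orange) include gly-17 and cky-1, with 0 reads in strain 1 adults, and pfk-1.2, with 0 reads in strain 2 adults.

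Set against the 123CUG strains, the stage change of the 0CUG strains differed in 1022 of 17248 genes (5.93%, edgeR interaction over 24 libraries), 336 more positive and 686 more negative in 0CUG (673 and 853 by DESeq2), and in 83 genes by the test against a 2-fold difference. Each construct has only 2 strains, and the test uses the spread among libraries within strains, not that between strains. Differences between strains can therefore be called here, and the 0CUG strains differed from each other in 20.5% of genes. On the scale of the 24 libraries, vit-2 stood at 20277, 35810.2 and 57303 CPM in 0CUG adults and 1351, 1939.6 and 2508 CPM in 0CUG L4, and at 29374, 36353 and 40091 CPM in 123CUG adults and 495, 694 and 911 CPM in 123CUG L4 (0CUG minus 123CUG -1.48 ± 0.12 SE, edgeR adjusted p = 7.48e-09). The adult ranges of the constructs overlapped, and the L4 ranges did not, with 0CUG L4 higher. col-19 was alike in this, at 404, 547 and 826 CPM in 0CUG adults and 313, 509 and 747 CPM in 0CUG L4, and at 426, 851 and 1263 CPM in 123CUG adults and 156, 224 and 289 CPM in 123CUG L4 (-1.74 ± 0.14 SE, edgeR adjusted p = 5.58e-09).

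The stage change of the collagens col-119 and col-140 also differed, by -1.58 and -1.60, and their L4 ranges did not overlap between constructs either, with 0CUG L4 higher. dhs-26 (ZK816.5, chromosome X, 3360722 to 3362493), a short-chain dehydrogenase gene, stood at 2.09, 3.75 and 4.47 CPM in 0CUG adults and 0.847, 1.498 and 1.98 CPM in 0CUG L4, and at 21.8, 23.6 and 35.5 CPM in 123CUG adults and 0.381, 0.543 and 1.28 CPM in 123CUG L4 (-3.99 ± 0.36 SE, edgeR adjusted p = 1.86e-08). It rose in both constructs, less in 0CUG. lips-12 (T13B5.6, chromosome II, 1112184 to 1114233), a lipase-related gene, stood at 0.163, 3.29 and 7.84 CPM in 0CUG adults and 14.2, 16.3 and 21.3 CPM in 0CUG L4, and at 0, 0.169 and 0.841 CPM in 123CUG adults and 0, 0 and 0.0354 CPM in 123CUG L4 (-8.94 ± 1.01 SE, edgeR adjusted p = 2.57e-06). The lectin gene clec-222 (C03E10.6, chromosome V, 11271351 to 11272467), the thaumatin family gene thn-1 (F28D1.3, chromosome IV, 12380084 to 12380900) and the lipase gene lipl-3 (R11G11.14, chromosome V, 521595 to 524218) rose in 0CUG by 5.85, 4.93 and 3.35, and the differences from 123CUG were -3.95, -4.92 and -4.45. The stage changes of lips-12 and thn-1 also differed between the 0CUG strains, by -4.85 and -3.70 (strain 1 minus strain 2). osm-5 (Y41G9A.1, chromosome X, 2984263 to 2991478), atln-2 (Y41E3.3, chromosome IV, 14981611 to 14996318) and srlf-35 (R11G11.7, chromosome V, 504028 to 504632) were more positive in 0CUG, by 3.21, 3.16 and 3.15, with edgeR adjusted p = 0.0288, 0.00723 and 0.00283. The call of osm-5 held in 25 of 32 alternatives (adjusted p up to 0.108, with the replicate block). They are low genes, with at most 7.13 CPM in any of the 24 libraries. wrt-4 and lad-2 were more positive in 0CUG than in 123CUG as well, by 7.20 and 4.40, where strain 1 adults alone of the 4 adult groups had more than 2 CPM. The call of wrt-4 was lost without replicate 1 of the strain 2 adults (4.95).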

How the data were processed

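Whole-worm RNA was sequenced for 36 libraries, of which 12 (0CUG) enter the main fit and 24 (0CUG and 123CUG) the construct comparison. The authors deposited raw read counts per gene and FPKM values in tables of pairwise comparisons. HISAT2, DESeq2 and build WBcel235 are named in the submitters' processing notes, while versions, the counting tool and the strand setting are not stated there. Counts of a library were joined across the deposited tables, in which 465954 values that appear more than once were equal and 0 differed. Genes missing from a table were set to 0 reads. Of the rows, 499 unnamed loci (0.0360% to 0.0643% of reads) were left out and 23990 named genes kept. Coordinates and exon overlaps are those of Ensembl release 115, WBcel235.

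Counts were tested with edgeR 4.0.16 in R 4.3.3 (quasi-likelihood F test, robust, TMM, filterByExpr, strain as covariate, Benjamini-Hochberg over all genes tested, adjusted p under 0.05), with glmTreat for a 2-fold change and interaction terms for strain and construct. Effective precision rests on 27726626 to 47021724 reads per library. Shares of reads were tested by exact permutation (SciPy 1.17.1, two-sided, without strain as a covariate). Counting intervals (95%) and the floor of 3 reads over the 6 libraries of a stage cover counting error only. The deposited FPKM served only to rank genes per length. Scripts ran in Python 3.11.15 with numpy 2.4.6 and pandas 2.3.3, and were tested on simulated data with 100 genes changed 2-fold and 100 changed 4-fold per test.

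Named genes are stage landmarks, the 12 largest rises and falls among protein-coding genes with a gene name and no overlap between stages, up to 2 rises and 2 falls per list, and the 5 largest of each interaction and direction, at 5 CPM or more, and 6 genes chosen after their values were seen. The members and the 42 lists were chosen with earlier results of these data known. Alternatives were DESeq2 1.42.0, other scalings and filters, other designs, a replicate block, each strain alone and leaving out each library. The N2 and mbl-1 libraries were not analysed here.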

Additional observations from a re-analysis of the deposited data

Results flagged for a closer look

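The values below are differences between 2 log2 stage changes (2-day adult over L4), and each was called by edgeR's glmTreat as larger than 2-fold in either direction, at an adjusted p under 0.05. Values of genes with 0 reads in 1 of the groups depend on the prior count of the fit.

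In strain 1 minus strain 2, the yolk protein genes changed more negatively in strain 1, at -1.76 (vit-2), -1.74 (vit-6), -1.82 (vit-5) and -1.95 (vit-4). So did the secreted and intestinal genes lys-7 (-3.38), ins-7 (-3.16), acox-1.5 (-1.60), dod-23 (-1.56), lips-12 (-4.85) and thn-1 (-3.70). gly-17 (-12.34), dsl-4 (-9.72) and cky-1 (-9.62) had 0 reads in strain 1 adults. clec-251 (-10.71) and clec-252 (-9.59) were read in strain 1 L4, and abu-12 (-6.91), a pharyngeal gene, fell further in strain 1. More positive in strain 1 were pfk-1.2 (11.22), col-137 (8.5), nep-8 (8.07), wrt-4 (7.45) and lad-2 (6.65), all with at most 1.19 CPM in any strain 2 adult library. The L4 libraries of strain 1, which hold transcripts of both sets of genes that set the strains apart in adults, enter each value.

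In 0CUG minus 123CUG, the yolk protein genes again changed more negatively in 0CUG, at -1.48 (vit-2), -1.49 (vit-6), -1.59 (vit-5) and -1.74 (vit-4), and so did the collagens col-19 (-1.74), col-119 (-1.58) and col-140 (-1.60). Also more negative were lips-12 (-8.94), thn-1 (-4.92), lipl-3 (-4.45), dhs-26 (-3.99) and clec-222 (-3.95). wrt-4 (7.20) and lad-2 (4.40) were more positive. No explanation was tested for any of these differences.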

How the results depend on the processing

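Counts of rises and falls kept within 1.5 times of 5562 and 7920 under each of the 25 alternatives but 1. Keeping only the 11058 genes with at least 5 CPM in 3 libraries tested fewer genes, and 5227 fell, 3395 of them beyond 2-fold, with 4512 rises. Leaving out 1 library at a time gave 5520 to 5642 rises and 7750 to 8098 falls. Leaving out both deepest libraries, an alternative chosen after seeing the data, gave 5491 rises and 7620 falls. Upper-quartile factors moved the median of all genes from -0.49 to -0.89 and turned the list medians of vulva and uterus (-0.079), DAF-16 outputs (-0.28), heat shock (-0.18) and splicing factors (-0.30), and the genes col-19 (-0.29), rde-12 (-0.21) and unc-94 (-0.13).

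Strain 1 alone reversed the median of the zygotic embryo list (-0.27), that of DAF-16 outputs (-0.40) and nhr-23 (0.043). Strain 2 alone reversed the medians of insulin-like peptides (0.69), lipases (0.15), lysozymes (0.13) and splicing factors (-0.031). Some of these medians are over fewer members than in the joint fit. The zygotic embryo list had 24 against 34 (strain 1), insulin-like peptides 17 against 21 and lysozymes 35 against 37 (strain 2). At 5 CPM the median of histones turned to 0.23 and that of the zygotic embryo list to -1.44. The difference in the share of reads, adult minus L4 in percentage points, was -0.0865 in strain 1 and -0.0573 in strain 2 for major sperm proteins, -1.66 and -6.77 for ribosomal proteins, and -0.777 and -1.24 for the respiratory chain. That of the mitochondrial genome was -0.230 without ribosomal RNA and yolk genes (exact permutation, adjusted p = 0.0519). The cause was not tested.

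pfk-1.2, lad-2 and gly-17, whose strains go opposite ways, turned with no strain covariate (1.57, 1.38 and 0.92) and in 1 strain alone (2.197 and 2.06 in strain 1 for pfk-1.2 and lad-2, 1.90 in strain 2 for gly-17). Leaving out 1 library gave -1.27 to 0.35 for pfk-1.2 and -1.71 to 0.099 for lad-2. Of the other gene and list values, 5007 values of the stage change of a gene kept their sign and side of the threshold, 73 lost their call, and 10 gained one.

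With the replicate number as a block, 5319 genes rose and 7579 fell. Same-numbered adult and L4 libraries did not deviate together (r from -0.0026 to 0.0408 across genes). The deviations were taken from the mean of each group of 3 libraries. With so few libraries they cannot tell whether same-numbered libraries share more than a number. The replicate block gave 2755 genes for the strain difference and 742 for the construct difference. Counts were simulated at the depth of these libraries, with 2-fold changes in genes that averaged at least 5 CPM. The stage test called 85% of the changed genes, the strain difference 61% and the construct difference 86%. Few genes were changed there, as many up as down. These shares therefore do not cover lower genes or a change in most of the transcriptome.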
